A study of Mus musculus and Homo sapiens with 10 samples.

Results

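Genes named Zfp followed by a number were examined in E14 mouse embryonic stem cells (mESCs), an established line, with and without vitamin C (vitC). Of 339 such genes in a deposited table of 25899 genes, Zfp42 left aside, 314 lay above the table's lowest value in all 8 libraries and form the group described here. They were selected on their deposited expression values, by being above that value in every library, so their presence in these cells is no finding. Of the others, 12 were at the lowest value in all 8 libraries, 2 were above it in 1, 4 in 4, 2 in 6 and 5 in 7. Just inside the limit stood Zfp287, with 31 reads over the 8 libraries, Zfp467, with 32, and Zfp879, with 36. Just outside stood Zfp608, with 67 reads, Zfp503, with 45, and Zfp784, with 38, each with no read in 1 library.

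The study asked how vitC changes transcription in ESCs, above all that of transposable elements. RNA-seq was made from 4 control cultures that received no vitC and 4 cultures given vitC at 100 µg/ml for 24 h, all of them E14 cells grown in 2i medium with LIF. Replicates 1 and 2 carry the culture numbers 10 and 11 in the labels. Replicates 3 and 4 share the number 35, with the letters B and C. Each vitC culture thus has a control of its own culture label. The 4 pairs made in this way were put into 2 culture sets, replicates 1 and 2 against replicates 3 and 4. No label joins cultures 10 and 11, so the first set is a grouping made here. The labels give total RNA for all 8 libraries and name both a ribosomal RNA depletion kit and an mRNA isolation kit, without saying which library had which. No label says what these letters stand for or how the cultures of one group were separated, so p-values measure only the spread between these libraries.

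Most proteins of this name carry C2H2 zinc fingers, small folds held by a zinc ion that read short stretches of DNA, often many in a row. A large class adds a KRAB domain at its start, which recruits the corepressor TRIM28 (KAP1) and, through it, the H3K9 methyltransferase SETDB1. In ESCs these KRAB zinc finger proteins are best known for silencing endogenous retroviruses and for holding the methylation of imprinted regions. Others of the name bind promoters, act on RNA or ribosomes, or pass ubiquitin to other proteins, so the shared name is no shared function. VitC is a cofactor of dioxygenases, among them the TET enzymes that oxidise methylated cytosine at CpG sites and the JmjC enzymes that remove histone methylation.

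All 314 genes were placed on GRCm38 with the GENCODE annotation, 303 by the same symbol and 11 by an older one, such as Zfp238, now Zbtb18. The annotation calls 311 of them protein coding and 3 pseudogenes. Translated from the annotated coding sequences, 176 held a KRAB-like stretch before the first finger, 135 held none and 3 had no coding sequence. The KRAB-like proteins had a median of 12 fingers and up to 33, and the others a median of 6 and up to 30. No finger of the searched spacing was found in 2 KRAB-like and 9 other proteins. Many of the genes are neighbours: 188 lie in 28 runs of at least 3 members with gaps of at most 1 Mb, and 142 of these 188 are KRAB-like, against 34 of the 126 outside runs. The run with the most members covers chr17:21008903-23599487, with 20 members of which 19 are KRAB-like, Zfp229 and Zfp677 among them.

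The promoters of 4 members are shown because the results below turn on these genes. Zfp229 and Zfp951 rose and Zfp445 fell in the paired fit. For Zfp454 the vitC difference, not the level, was called different between the culture sets, and only with the pair as a block. Each line gives the 250 bases before the most upstream RefSeq start site of the gene on GRCm38.p6, 5′ to 3′ on the gene's strand, with every CpG in capitals. The window of Zfp229 is chr17:21733474-21733723 (plus strand), that of Zfp951 chr5:104860069-104860318 (minus), that of Zfp445 chr9:122866007-122866256 (minus) and that of Zfp454 chr11:50887511-50887760 (minus). GENCODE starts Zfp229 and Zfp454 further upstream than RefSeq does. The Zfp229 window thus lies inside the GENCODE gene, and that of Zfp454 partly so.
Zfp229: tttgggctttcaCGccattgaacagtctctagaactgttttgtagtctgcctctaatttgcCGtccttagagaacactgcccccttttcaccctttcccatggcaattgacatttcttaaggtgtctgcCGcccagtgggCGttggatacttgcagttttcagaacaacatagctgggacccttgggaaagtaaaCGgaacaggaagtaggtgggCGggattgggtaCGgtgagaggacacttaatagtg
Zfp951: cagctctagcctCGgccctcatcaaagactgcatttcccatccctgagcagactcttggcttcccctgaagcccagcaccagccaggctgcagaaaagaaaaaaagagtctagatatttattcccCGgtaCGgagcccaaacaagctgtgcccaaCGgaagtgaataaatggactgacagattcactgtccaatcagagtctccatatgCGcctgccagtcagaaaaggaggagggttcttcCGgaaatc
Zfp445: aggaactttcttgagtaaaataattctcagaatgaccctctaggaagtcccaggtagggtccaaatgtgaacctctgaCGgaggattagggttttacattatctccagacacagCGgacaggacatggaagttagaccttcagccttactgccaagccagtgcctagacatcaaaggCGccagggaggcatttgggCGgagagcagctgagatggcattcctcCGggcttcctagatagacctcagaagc
Zfp454: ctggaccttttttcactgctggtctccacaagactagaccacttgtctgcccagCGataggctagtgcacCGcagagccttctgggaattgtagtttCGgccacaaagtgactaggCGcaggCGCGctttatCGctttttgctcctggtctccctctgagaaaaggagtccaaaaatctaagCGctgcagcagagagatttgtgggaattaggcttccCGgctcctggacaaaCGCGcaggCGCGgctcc

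These windows hold 7 CpGs for Zfp229, 6 for Zfp951, 5 for Zfp445 and 13 for Zfp454. At least as many stand in 46.6%, 50.5%, 55.5% and 31.8% of all 27025 promoters of the table, respectively. A promoter was matched for 261 of the 314 genes, and the median was 11 CpGs, against 6 for all promoters. These sets are unlike, since the members had to be expressed in all 8 libraries and the genes of the other promoters did not. KRAB-like members had a median of 8.5 CpGs (156 matched) and the others a median of 15 (103 matched). Of the genes that passed the paired test described below, those higher with vitC had a median of 8 CpGs (12 matched) and those lower a median of 12.5 (8 matched). These are counts of letters in the reference, and methylation was not measured in the files used here.

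Expression is given in 2 scales. The deposited values are variance-stabilised and log2-like, with 6.13 as the table's lowest value, and a difference of 1 is close to 2-fold only for well expressed genes. For levels between genes, the whole reads recovered from these values were divided by exon length and library total (RPKM, recovered reads scaled to exon kilobases and to library totals). The 8 libraries held between 3354852 and 6921305 reads over all genes. The 10 mESC markers looked at, among them Pou5f1, Sox2 and Nanog, were all present, with summed levels of 5113 to 5723 CPM (counts scaled to the library total). In the paired limma fit described below, 2 of these 10 were higher with vitC, Dppa3 (0.30, adjusted p = 0.00363) and Tfcp2l1 (0.11, 0.0231), and 4 were lower, Tdgf1 (-0.40, 9.53e-05), Nanog (-0.25, 0.000647), Klf2 (-0.13, 0.0351) and Pou5f1 (-0.12, 0.0221). Whether this has a part in the vitC differences of Zfp genes was not tested. Sums were 6.75 to 42.4 CPM for 8 differentiation markers and 5.20 to 16.8 CPM for 5 fibroblast markers, of which Acta2 was at 0 in all 8 libraries. The 5 markers of 2-cell-like cells summed to 0 to 0.487 CPM in control and 0.632 to 2.98 CPM in vitC libraries, a difference whose part in the vitC results was not tested, and Zfp352, Tcstv1 and Tcstv3 among them were at 0 throughout. In bulk RNA, fewer cells of a type and less RNA per cell cannot be told apart.

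The Zfp genes were expressed at low levels as a group. Their median level was 3.65 RPKM, with quartiles of 1.72 and 8.46, against a median of 7.24 RPKM for all genes present in all 8 libraries. The median was 3.08 RPKM for KRAB-like members and 5.39 for the others. Related families stood at 2.46 RPKM (18 Zscan and Zkscan genes) and 5.21 RPKM (36 Zbtb genes). Together the members took 1.18% ± 0.035 (SD, n = 4) of the gene reads in control and 1.20% ± 0.042 (SD, n = 4) in vitC libraries.

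Highest per length was Zfp428, at 82.9 ± 5.6 RPKM (SD, n = 8). It was followed by Zfp106, an RNA-binding protein, at 67.3 ± 4.5 RPKM, Zfp57, a KRAB protein that keeps imprinted regions methylated, at 64.6 ± 13, Zfp706 at 61.1 ± 2.1, and the KRAB-like Zfp600 at 57.2 ± 4.4. The level of Zfp600 is uncertain, since 87.3% of its 31-base words also stand in transcripts of other genes. From Zfp106 to Zfp600, each level differed from the next by less than the larger of their SDs, so these ranks are not firm. At the other end stood Zfp287 at 0.092 ± 0.066 RPKM, Zfp748 at 0.172 ± 0.055, Zfp467 at 0.176 ± 0.065, Zfp964 at 0.180 ± 0.125 and Zfp579 at 0.198 ± 0.11. These 5 genes had 1 to 16 reads per library, too few to show any but very large changes.

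**Figure D1:**
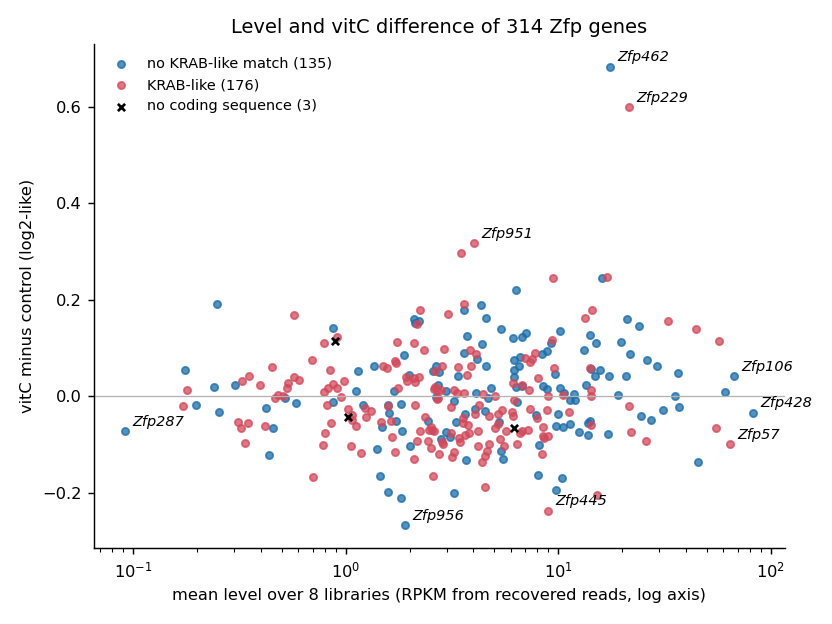
Mean level over 8 libraries (x, RPKM from recovered reads, log axis) against the vitC minus control difference on the deposited log2-like scale (y) for each of the 314 Zfp genes, coloured by whether a KRAB-like stretch was found. Most genes lie within 0.2 of 0 at every level, and Zfp462 and Zfp229 stand apart above.

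With vitC, the median Zfp gene lay close to its control level, as did the median of all genes. The median difference between vitC and control cultures was -0.0025 on the log2-like scale, against -0.0020 over all 14631 genes tested, and the interquartile range was 0.122 against 0.128. Single genes ranged from -0.27 to 0.68. By pair, the median was 0.016 in pair 1, -0.0063 in pair 2, -0.013 in pair 3 and -0.0088 in pair 4, an SD of 0.0131 over the pairs. For KRAB-like members the median was -0.018, and for the others it was 0.011. VitC values were above control in all 4 pairs for 43 members (13.7%, against 15.4% of all genes) and below it in all 4 for 50 (15.9%, against 14.4%).

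In the comparison without regard to pairs, no Zfp gene passed the threshold (limma, Benjamini-Hochberg adjusted over all genes, threshold 0.05). Over all genes, 0.321% were called higher and 0.0205% lower by the same fit. At an unadjusted p below 0.05 there were 14 members higher (4.46%) and 10 lower (3.18%) in limma, where 4.48% and 3.18% of all genes were. Counting models on the recovered reads gave 0 in edgeR and 1 in DESeq2, Zfp462. Of all 14631 genes, they called 38 and 122. What both libraries of a pair have in common is taken out by a paired fit, in which the pair is a block. This fit called 16 Zfp genes higher (5.10% of 314) where 6.36% of all genes were called higher, and 10 lower (3.18%) where 4.44% of all genes were. Both shares of the Zfp genes were near those of all genes, slightly below them, and the gap was not tested. In what follows, a gene is said to rise or fall where the paired limma fit called it. With edgeR and the same block, 21 were higher, against 7.24% of all genes, and 12 lower, against 6.07%, and these included all 26 genes that paired limma called. Without pair 1, 2, 3 or 4, paired limma called 9, 13, 13 and 11 members higher and 6, 2, 7 and 2 lower. The shares of all genes in these fits are not given here.

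Of the 26 genes called in the paired fit, 14 were higher and 9 lower in all 4 pairs. In 9 of the 26, all vitC libraries lay beyond all control libraries. Over the whole group this held upward for 9 genes (2.87%), where 3.31% of all genes showed it, and downward for 8 (2.55%), where 1.98% did. Of the 16 that rose 10 were KRAB-like, and of the 10 that fell 3 were, where 176 of all 314 members are. In either direction 7.39% of the KRAB-like members were called, against 9.63% of those with no KRAB-like stretch. These differences were not tested.

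On the deposited scale the largest rise was that of Zfp462, a very long zinc finger protein linked to heterochromatin in ESCs (chr4:54945048-55083563, plus strand). In control cultures its values were 9.86, 9.85, 9.64 and 9.50 for replicates 1 to 4, and in vitC cultures 10.53, 10.68, 10.21 and 10.15. Every vitC library was above every control library. The means were 9.71 ± 0.18 and 10.39 ± 0.25 (SD, n = 4 each), a difference of 0.68 (standard error 0.043 in the paired fit). The limma adjusted p was 0.0712 without pairing and 2.72e-09 with the block. It was the one member that DESeq2 called without pairing. As an edgeR log2 fold change with the block the rise was 0.78, and on that scale Zfp869 (0.98, 8 to 50 reads per library) and Zfp536 (1.01, 2 to 27 reads) were above it. Zfp536 was past the threshold there (adjusted p = 0.0321) and not in paired limma (0.0741), and it was picked out after its values were seen.

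Zfp229, a KRAB-like gene with 16 fingers (chr17:21730795-21769342, plus strand), came next. Control values were 9.22, 9.55, 8.83 and 8.80 and vitC values 9.94, 9.90, 9.44 and 9.52. Within each pair vitC was higher, yet the vitC libraries of replicates 3 and 4 lay below the highest control library, so the groups overlapped. The difference of 0.60 (standard error 0.053, paired) had a limma adjusted p of 0.332 without pairing and 3.32e-07 with the block. Of its 31-base words, 4.22% also stand in transcripts of other genes.

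Zfp951, another KRAB-like gene (chr5:104813169-104860070, minus strand), was at 7.71, 7.67, 7.43 and 7.50 in control and at 7.99, 8.02, 7.76 and 7.81 in vitC cultures. The groups did not overlap. It had 54 to 155 reads per library, and its difference was 0.32 on the deposited scale and 0.61 as an edgeR log2 fold change with the block, since variance stabilisation shrinks differences of genes with few reads. The paired limma adjusted p was 0.000394, and the unpaired one 0.292.

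The next risers with vitC above control in all 4 pairs were Zfp869 (0.30), Zfp936 (0.25), Zfp704 (0.25), Zfp317 (0.25) and Zfp516 (0.22), with paired limma adjusted p-values of 0.0038, 0.00307, 0.00118, 0.00238 and 0.00307. For the KRAB-like Zfp936 and Zfp317 the groups were apart, whereas for the others they overlapped. Zfp936 shares 31.4% of its words with other genes and Zfp869 14.2%, so their reads are less certain, and exons of Zfp704 overlap an annotated gene on the other strand. Zfp869 had only 8 to 50 reads per library. Zfp46 and Zfp37, each with a difference of 0.19, were each past the threshold without 1 of the pairs (pair 1 for Zfp46, pair 2 for Zfp37) and not without any of the others, where paired limma adjusted p-values reached 0.129 and 0.132. In contrast, each of Zfp462, Zfp229, Zfp951, Zfp869, Zfp936, Zfp704, Zfp317 and Zfp516 was past it without each pair in turn. Zfp568, described with the KRAB proteins, and Zfp459 (0.18), Zfp619 (0.18), Zfp961 (0.16), Zfp219 (0.16) and Zfp655 (0.15) were the other genes that rose.

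**Figure D2:**
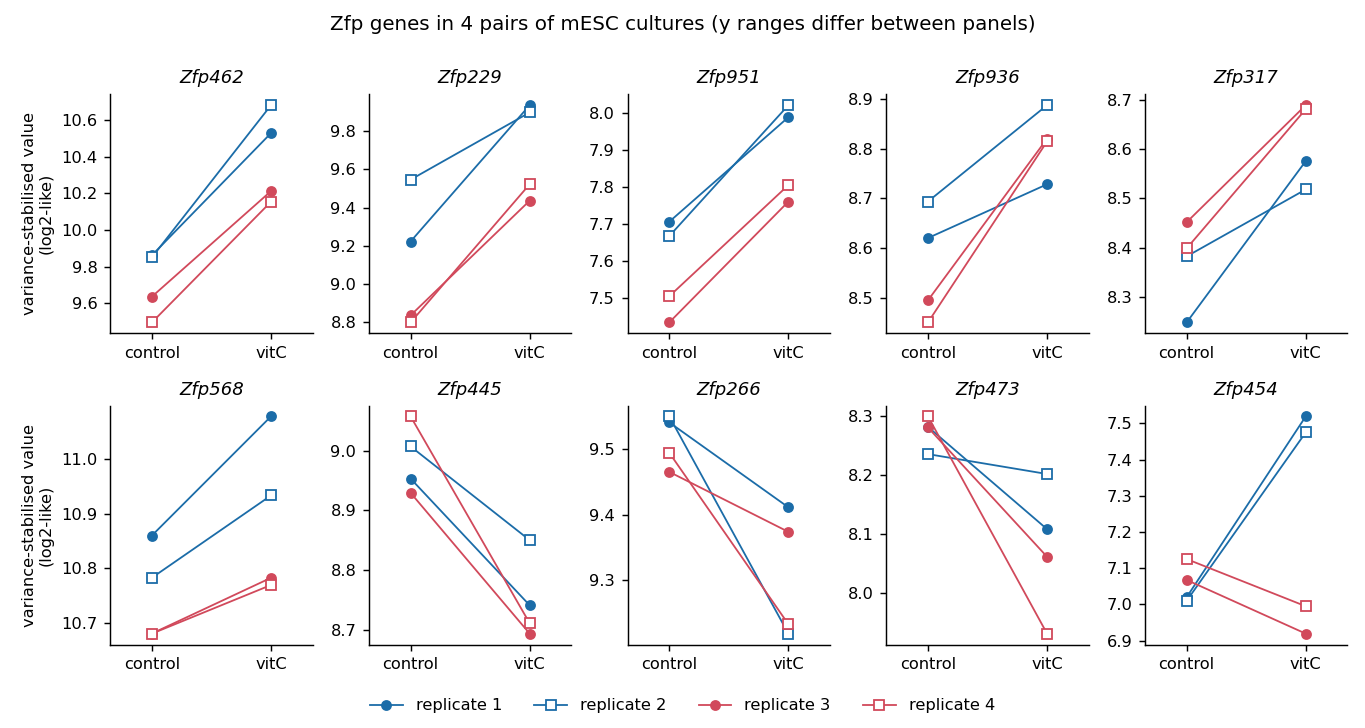
Variance-stabilised values (y, log2-like, ranges differ between panels) of 10 Zfp genes in control and vitC cultures (x), with a line for each of the 4 pairs and the colour giving the culture set. Zfp462, Zfp229 and Zfp951 go up in every pair, Zfp445 goes down in every pair, and Zfp454 goes up in replicates 1 and 2 and down in replicates 3 and 4.

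Among the 9 genes that fell in all 4 pairs, Zfp445 was the one that stayed past the threshold without each pair. Like Zfp57, it guards imprinted methylation (chr9:122844529-122866006, minus strand). Control values were 8.95, 9.01, 8.93 and 9.06 and vitC values 8.74, 8.85, 8.69 and 8.71, with no overlap. The difference was -0.24 (standard error 0.046, paired), with a limma adjusted p of 0.225 unpaired and 0.00216 paired.

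Zfp956 had the largest fall on the deposited scale, -0.27, from 7.16 ± 0.05 to 6.89 ± 0.15 (SD, n = 4 each). It had 11 to 57 reads per library, its exons overlap those of Zfp783 on the same strand, and its paired limma adjusted p of 0.00907 reached 0.0752 without pair 2. Zfp266, KRAB-like, was at 9.51 ± 0.04 in control and 9.31 ± 0.10 in vitC cultures, with separate groups and a paired limma adjusted p of 0.00707, which was up to 0.0586 without pair 2 or pair 4. Zfp473, which takes part in histone mRNA processing with the U7 snRNP, fell by 0.20 and Zfp62 by 0.17, each with separate groups and paired limma adjusted p-values of 0.0233. Those calls were lost for Zfp473 without pair 1, 3 or 4 and for Zfp62 without pair 1, 2 or 4, with adjusted p up to 0.184 for each. The remaining falls in all 4 pairs were those of Zfp750 (-0.21), a regulator of epidermal differentiation, Zfp423 (-0.20), a transcription factor of neural and fat precursors, Zfp623 (-0.19) and Zfp207 (-0.14). All 4 had overlapping groups. Zfp750 lost its call without pair 1, 2 or 4, Zfp423 without any 1 pair, Zfp623 without pair 2, 3 or 4 and Zfp207 without pair 2 or 4, with paired limma adjusted p up to 0.176, 0.0918, 0.118 and 0.151. Zfp941 (-0.19) was the 1 gene called lower without being lower in all 4 pairs.

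**Figure D3:**
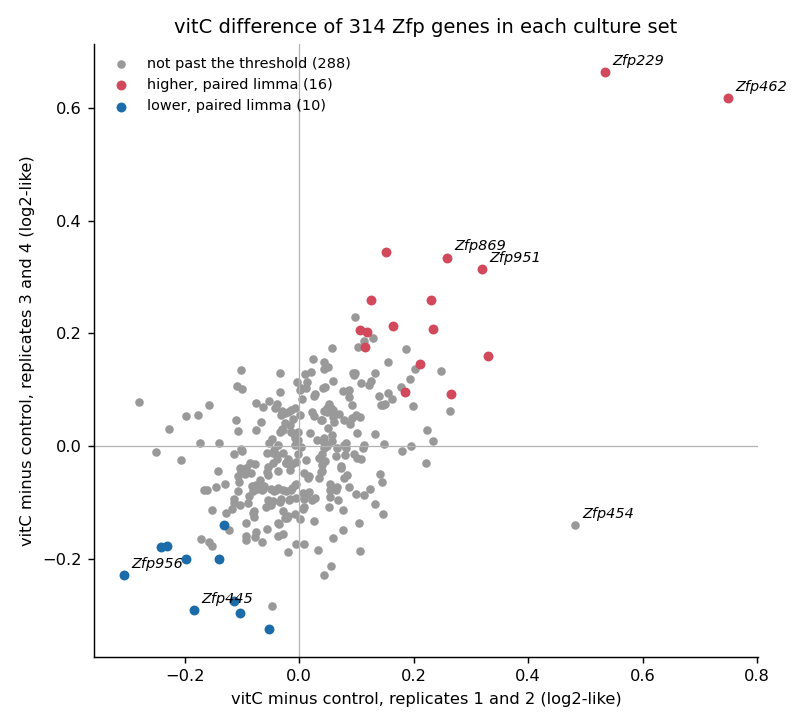
Mean vitC minus control difference (log2-like) of each of the 314 Zfp genes in replicates 1 and 2 (x) and in replicates 3 and 4 (y), with the 16 genes called higher and the 10 called lower by paired limma coloured. Zfp462 is at 0.75 and 0.62 and Zfp229 at 0.53 and 0.66, while Zfp454 is at 0.48 and -0.14.

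KRAB proteins with known targets were followed by role, 7 of them. Besides Zfp445, only Zfp568, which represses a placental Igf2 transcript, passed the paired test: it went from 10.75 ± 0.09 to 10.89 ± 0.15 (SD, n = 4 each), higher in 4 of 4 pairs, with a difference of 0.14 and a limma adjusted p of 0.0159 paired and 0.772 unpaired. That call was lost without pair 1 or pair 2. Zfp57 was at 10.47 ± 0.19 and 10.37 ± 0.36, lower in 2 of 4 pairs. Zfp932, which acts on endogenous retroviruses, was at 7.90 ± 0.04 and 7.83 ± 0.04, with 48.3% of its words shared with other genes and so uncertain counts, and Zfp819 at 7.59 ± 0.16 and 7.56 ± 0.14. Zfp708, which silences RMER19B elements, was at 7.14 ± 0.06 and 7.15 ± 0.10, but 95.6% of its words stand in other genes too, so its counts are uncertain.

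Zfp809 silences murine leukaemia proviruses in ESCs by binding their primer site. Control values were 8.35, 8.34, 8.24 and 8.14 and vitC values 8.68, 8.54, 8.13 and 8.38, so that vitC was higher in 3 of 4 pairs and lower in pair 3. The difference of 0.16 was not past the threshold in limma (adjusted p = 0.803 unpaired and 0.0897 paired) and was past it in edgeR with the block (log2 fold change 0.29, adjusted p = 0.0158). Among 10 repeat subfamilies of the MuLV and VL30 kinds and RMER19B, edgeR called 0 without the block (3 at an unadjusted p below 0.05). With it, RLTR6-int was the one past the threshold, at 164 ± 6.48 CPM in control and 208 ± 24.0 CPM in vitC cultures (SD, n = 4 each), where 4.66% of the 902 subfamilies tested were called (edgeR, log2 fold change 0.34, adjusted p = 0.0242). RMER19B was at 502 ± 22.8 and 493 ± 15.2 CPM.

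Of 8 members that act in transcription and chromatin, Zfp462 alone passed a test. Zfp335 was 0.13 higher (paired limma adjusted p = 0.0942) and Zfp217, a partner of the CoREST repressor complex, 0.09 higher (0.196), both in 4 of 4 pairs. The differences were 0.05 for Zfp148, 0.02 for Zfp384, 0.00 for Zfp296, -0.03 for Zfp281, a partner of Nanog, and -0.06 for the promoter factor Zfp143. Of 7 members that act on RNA, ribosomes or ubiquitin, Zfp207, a mitotic spindle protein also called BuGZ, fell as given above. The others were Zfp91, a ubiquitin ligase (0.10), Zfp326 (0.05), Zfp598, which marks collided ribosomes (0.05), Zfp106 (0.04), Zfp622, a factor of large ribosomal subunit assembly (0.04), and Zfp36, which speeds decay of AU-rich mRNAs (0.01), with paired limma adjusted p-values from 0.159 to 0.935.

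Partners of KRAB proteins were looked at in the same fits, within a wider list of corepressor, silencing and H3K9 methylation genes. Of this list 27 were in the table, among them the H3K9 demethylase genes Kdm4a, Kdm4b and Kdm4c, none of which was called. Trim28 itself differed by -0.006 (paired limma adjusted p = 0.934). With the block, 4 of the 27 were higher, where 6.36% of all genes were, and 1 lower, where 4.44% were. Without it limma called 0 (1 at an unadjusted p below 0.05), edgeR 0 and DESeq2 1. Higher were Atf7ip, the SETDB1 cofactor (0.79, paired limma adjusted p = 4.60e-10), Suv39h1 (0.24, 0.00678), Setdb1 (0.23, 0.000403) and Ehmt1 (0.14, 0.0277), of which Suv39h1, Setdb1 and Ehmt1 encode H3K9 methyltransferases. Lower was Cbx3, the HP1 gamma gene (-0.18, 0.0106).

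Between the culture sets, Zfp genes were called lower about as often as all genes and called higher less often. With vitC in the fit, 69 of the 314 (22.0%) were lower in replicates 3 and 4 than in replicates 1 and 2, where 21.5% of all genes were, and 20 (6.37%) were higher, where 18.9% of all genes were (limma, adjusted over all genes). This fit counts both libraries of a pair as separate samples, although they share a culture label, which can make its p-values too small. With the 2 libraries of each pair averaged first, so that 2 pairs stood against 2, limma called 54 members lower (17.2%), where 18.1% of all genes were, and 10 higher (3.18%), where 14.7% were. Pairs 3 and 4 share the culture number 35, so p-values on pair means can be too small as well. The median difference was -0.043, against -0.008 over all genes, and 63.7% of the members lay below 0, against 51.8% of all genes. Genes present in all 8 libraries, as the members had to be, had a median of 0.0019, with 49.6% below 0. With vitC in the fit, 21.9% of these were called lower and 20.9% higher. After quantile normalization the medians of the members and of all genes were -0.017 and 0.017, with 27 members higher and 58 lower. Of all 14631 genes, 3202 were higher and 2766 lower in that setting. The higher count of members was 8 without control replicate 1, 12 without control replicate 4, 13 without vitC replicate 3 and 12 without vitC replicate 4. Over all genes it was 2335, 2383, 2531 and 2309, in that order.

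KRAB-like members were lower in 32 of 176 cases and higher in 9, and the others lower in 37 of 135 and higher in 11. Medians were -0.034 and -0.064. Zscan and Zkscan genes had a median of -0.044 and Zbtb genes one of -0.026. The members' share of all gene reads was 1.22% ± 0.019 (SD, n = 4) in replicates 1 and 2 and 1.15% ± 0.010 in replicates 3 and 4. Other measures moved with the sets: ribosomal RNA made up 42.0 to 51.5% of the repeat counts in replicates 1 and 2 and 60.0 to 63.1% in replicates 3 and 4, replication histone genes 15038 to 18763 and 21960 to 25120 CPM, and differentiation markers 39.7 to 42.4 and 6.75 to 9.54 CPM. Of the latter, T had 95 to 109 reads per library in replicates 1 and 2 and 4 to 9 in replicates 3 and 4, and Cdx2 86 to 117 and 4 to 12. Of the 7 differentiation markers tested, only T and Cdx2 were called between the sets. The others had few reads and differed by 0.04 (Gata4), 0.02 (Foxa2), 0.08 (Sox1), 0.12 (Pax6) and -0.14 (Sox17). Of the 10 mESC markers, limma called 2 higher in replicates 3 and 4, Tdgf1 (0.74) and Pou5f1 (0.42). It called 4 lower, Dppa3 (-0.96), Sox2 (-0.35), Klf4 (-0.35) and Tfcp2l1 (-0.25). Of the 3 fibroblast markers tested, Thy1 was called higher (0.84), Col1a2 lower (-0.96) and Col1a1 not called. The part of all these measures in the Zfp differences was not tested.

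**Figure D4:**
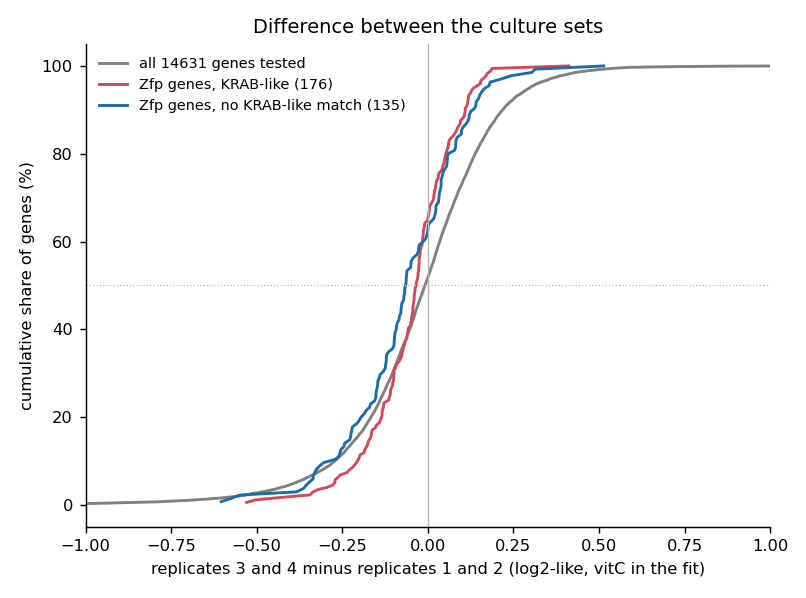
Cumulative share of genes (y, %) by the difference between replicates 3 and 4 and replicates 1 and 2 (x, log2-like, shown from -1 to 1) for KRAB-like Zfp genes, the other Zfp genes and all genes tested. Both Zfp curves cross 50% left of 0, at medians of -0.034 and -0.064, and reach the top before the curve of all genes, whose median is -0.008.

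Zfp423 stood highest in replicates 3 and 4 relative to replicates 1 and 2. Control values were 7.13 and 6.99 in the first set and 7.68 and 7.48 in the second, vitC values 6.93 and 6.80, and 7.42 and 7.34, so the sets were apart. Their means were 6.96 ± 0.14 and 7.48 ± 0.14 (SD, n = 4 each), a difference of 0.51 (limma adjusted p = 3.34e-06). Zfp57 followed, at 10.21 ± 0.22 and 10.63 ± 0.10, a difference of 0.41 (adjusted p = 0.000302, limma). Zfp593, a ribosome assembly factor (0.31), Zfp775 (0.30) and Zfp238 (0.24) completed the 5 largest. On pair means these 5 had limma adjusted p-values from 0.00019 to 0.00755.

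Zfp703, a transcriptional corepressor, was lowest in replicates 3 and 4 relative to the other set. It was at 7.09 and 7.10 in control and 7.28 and 7.0 in vitC cultures of replicates 1 and 2, and at 6.58 and 6.39, and 6.65 and 6.44, in those of replicates 3 and 4. That is a fall of 0.60 on the deposited scale at 3 to 49 reads per library (limma, adjusted p = 3.23e-06). Zfp704 differed by -0.57, Zfp365 by -0.55, Zfp677 by -0.53 and Zfp229 by -0.50, with limma adjusted p-values from 5.01e-07 to 2.98e-05. On pair means the adjusted p-values of these 5 lowest genes were 5.43e-05 to 0.00039. Zfp704 and Zfp229 were therefore higher with vitC within pairs and lower in replicates 3 and 4. Of the 28 runs of neighbouring members, 9 held genes called lower but none called higher, 4 the reverse, 5 both and 10 neither. Over the 188 genes in runs, 33 (17.6%) were lower and 11 (5.85%) higher in replicates 3 and 4.

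Whether the vitC difference itself depended on the culture set was asked with an interaction term. Without the block no member was called, and 0% of all genes were. At an unadjusted p below 0.05 there were 6 members (1.91%) in limma, against 4.11% of all genes, and 8 (2.55%) in edgeR, against 3.62%, and edgeR also called 0. With the block 0.0889% of all genes were called, 13 of 14631, and 1 member, the KRAB-like Zfp454 (chr11:50872720-50887651, minus strand). In replicates 1 and 2 it went from 7.02 and 7.01 in control to 7.52 and 7.48 in vitC cultures, and in replicates 3 and 4 from 7.07 and 7.13 to 6.92 and 6.99. The differences were 0.48 and -0.14, and the term was -0.62 (standard error 0.115), with a limma adjusted p of 0.0302 with the block and 0.209 without. It had 14 to 73 reads per library and its promoter is the one above with 13 CpGs.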

How the data were processed

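RNA-seq of 8 mESC libraries was used, and 2 hESC libraries of the series were not. The authors mapped reads to mm10 and counted genes and repeats with SQuIRE, whose version is not given in the sources used here. How reads shared by near-identical genes were counted is not stated there. The gene table deposited by the authors holds DESeq2 variance-stabilised values, which are close to log2 of normalised counts. Their repeat table, also deposited, holds expected counts per subfamily, rounded here for testing. 4 other columns of per-sample values were not used.

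Inverting the transformation gave whole reads, within 0.1, for 100% of the values above the lowest. The count models and RPKM use these reads. A gene was tested if 4 or more libraries exceeded the table's lowest value. These genes were fitted with limma 3.58.1 (lmFit, eBayes with a trend, R 4.3.3), with Benjamini-Hochberg adjustment over all of them and a threshold of 0.05. Repeats were fitted with edgeR 4.0.16. The comparison stated first leaves the pair out of the model. The same replicate number means the same culture label, and within pairs the libraries' departures from their group averages had r = 0.626 to 0.765 across genes. Differently numbered libraries of the same culture set had r = 0.574 to 0.665, so much of this is common to a set. As the labels give the pairs a shared culture, paired values stand beside each result they change. Alternatives were the replicate block, edgeR and DESeq2 1.42.0 on recovered reads, other filters, no variance trend, quantile normalization, a 1.5-fold minimum, each library left out and each culture set alone. Paired fits without each pair, and culture sets compared on pair means, were chosen after seeing the data. The limma and edgeR fits of vitC against control, with and without the block, were tested on simulated data. The other fits were not.

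The members, lists and the division into culture sets were chosen with earlier results of these data known. Named are up to 10 rises and 10 falls past the threshold in either limma fit and alike in all 4 pairs, members of 3 role lists, the 5 largest differences each way between culture sets, interaction calls, and the 5 highest and lowest levels. Coordinates, exon lengths and translated coding sequences come from GENCODE vM21 on GRCm38, the build of mm10. A KRAB-like stretch matched at least 6 of 8 fixed letters of the KRAB A box. Exons of 95 of the 314 genes overlap another annotated gene, 74 of them on the other strand. The share of 31-base words that a gene's transcripts share with other genes had a median of 1.53%, and was above 20% for 41 members, 37 of them KRAB-like. Promoters are from RefSeq. Depth limits precision at 1 to 8 reads per library for the scarcest member, and intervals of counts were not computed.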

Additional observations from a re-analysis of the deposited data

Results flagged for a closer look

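Zfp516 stood out in replicate 1: its control library was at 8.71 where the next was at 8.47, and its vitC library at 8.95 where the next was at 8.69, so that the gap exceeded the limit of Dixon's test at 4 values in both groups, while the difference within the pair was like that of the other pairs. For Zfp956, vitC replicate 2 was at 6.67 where the nearest vitC library was at 6.94. These were 3 of 78 groups looked at, of 39 genes, and chance flags about 1 in 20 groups.

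Zfp454 was the one member whose vitC difference differed between the culture sets by a test of that difference. The interaction was -0.62 on the log2-like scale, past the threshold with the replicate block and not without it, and every pair of one set moved up and every pair of the other down.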

How the results depend on the processing

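Without pairing, no Zfp gene was called higher or lower in limma without a variance trend, with quantile normalization, under either other filter, at a minimum of 1.5-fold, in edgeR, in replicates 3 and 4 alone, or without any 1 library. DESeq2 called 1 higher (Zfp462), and replicates 1 and 2 alone gave 3 higher (Zfp462, Zfp229 and Zfp454). In either direction, these settings called 122 and 175 of all 14631 genes. With the replicate block, the paired fit, 16 were higher and 10 lower in limma and 21 and 12 in edgeR. The block without pair 1 gave 9 and 6, without pair 2 13 and 2, without pair 3 13 and 7, and without pair 4 11 and 2, with fewer libraries in each fit. Of 20 named genes called in the paired fit, 9 stayed past the threshold without each pair in turn. The median difference stayed between -0.015 and 0.0045. No named gene reversed a call.

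Between culture sets, 3 members (0.955%, against 6.96% of all genes) were higher and 22 (7.01%, against 9.93%) lower in control libraries alone, and 7 (2.23%, against 9.42%) and 34 (10.8%, against 12.6%) in vitC libraries alone, with fewer libraries in each fit. On pair means 10 were higher and 54 lower. Leaving out 1 library gave 8 to 20 higher and 59 to 64 lower, where 2309 to 2679 and 2739 to 3068 of all genes were. The interaction called 1 member with the replicate block and 0 in the other fits run. Scarce genes limit the results: on the deposited scale Zfp869 differed by 0.30, and by 0.98 as an edgeR log2 fold change.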
